A study of Homo sapiens with 4 samples.

Results

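In the cytoplasm of cells that received only the solvent DMSO, 669 introns already carried many reads of their own sequence. They were chosen among 99034 introns of 11 to 3000 bp, out of 142224 listed, as those with at least 20 intronic reads (reads inside the intron) and at least 50 intronic reads per 100 spliced reads (reads that span the intron) in each of the 2 DMSO libraries. They are called retained introns here after that rule, and they lay in 603 genes, of which 542 held 1, 56 held 2 and 5 held 3. The cells were SUM159, a long-established line from a human breast tumour, of the mesenchymal, triple-negative type. H3B-8800, an inhibitor of the spliceosome, was given for 12 hours to 2 cultures and DMSO for the same time to 2 others, described as biological duplicates, and polyadenylated RNA of the cytoplasmic fraction was sequenced from each. No genetic change or other treatment is named for either group.

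Introns are cut out of new transcripts by the spliceosome, whose SF3b complex holds the U2 small nuclear ribonucleoprotein at the branch point near the 3′ end of the intron. Compounds of the class of H3B-8800 bind SF3b and disturb this step. An intron can also stay in a finished RNA without any drug: some such transcripts wait in the nucleus as detained introns, others reach the cytoplasm, where many are removed by nonsense-mediated decay because translation runs into a stop codon inside the intron. A read inside an annotated intron need not come from such an RNA, since the same bases can be an exon of another transcript, such as one with an alternative start or end.

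Annotated exons of other transcripts were common inside the 669 introns, but where the reads lay within an intron was not examined. In the GENCODE 29 annotation, 141 of the introns (21.1%) lay wholly inside an exon of another transcript on their strand, 379 (56.7%) overlapped such exons in part, with a median of 32.8% of the intron covered, and 3 had an exon on the opposite strand only. The other 146 (21.8%) held no annotated exon. Among the 4438 other introns of this size with enough reads of both kinds for a test of their ratio, 19.5% lay wholly inside an exon, 44.4% overlapped one in part and 33.9% held none. An annotated last exon overlapped 48.7% of the retained introns and 36.2% of those others, whereas exons of transcripts that GENCODE classes as retained_intron held 13.8% and 14.3%. The name retained intron therefore fits the reads by rule only, and the main values are also given for the 146 introns without an exon.

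The sequences of introns that lie inside an annotated exon could be read from GENCODE 29 transcripts (build GRCh38, the same coordinates as hg38). Of 19 such introns of up to 300 bp that begin with GT, end with AG and touch no annotated untranslated region, 8 are printed here, because they show the range from the highest to the lowest change of the intronic-to-spliced ratio among the 19. The choice was made with these values known. The first 4 had the highest ratio changes under H3B-8800, which were 3.15, 3.06, 2.55 and 2.09 on the log2 scale, and the last 4 the lowest, -0.50, -0.47, -0.20 and -0.18. Each is written 5′ to 3′ on the strand of its gene, and the capitals mark the GT and AG at its ends. Intron 6 of HNRNPL is at chr19:38840377-38840487, minus strand; intron 4 of GTPBP2 is at chr6:43625063-43625362, minus strand; intron 4 of FTSJ1 is at chrX:48482795-48482985, plus strand; and intron 1 of NT5C3B is at chr17:41835958-41836181, minus strand. Intron 5 of PSMB10 is at chr16:67935479-67935581, minus strand, intron 22 of EDC4 at chr16:67881846-67881953, plus strand, intron 1 of DPM2 at chr9:127937524-127937817, minus strand and intron 1 of CDCA5 at chr11:65083724-65083932, minus strand. All 8 lie between coding exons.
HNRNPL intron 6: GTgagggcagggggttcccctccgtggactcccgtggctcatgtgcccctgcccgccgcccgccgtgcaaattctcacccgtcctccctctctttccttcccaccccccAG
GTPBP2 intron 4: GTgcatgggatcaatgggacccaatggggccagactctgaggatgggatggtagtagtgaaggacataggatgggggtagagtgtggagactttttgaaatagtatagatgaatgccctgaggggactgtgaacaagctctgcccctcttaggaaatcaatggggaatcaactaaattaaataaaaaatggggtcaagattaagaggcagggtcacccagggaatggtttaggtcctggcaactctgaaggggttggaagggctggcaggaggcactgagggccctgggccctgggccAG
FTSJ1 intron 4: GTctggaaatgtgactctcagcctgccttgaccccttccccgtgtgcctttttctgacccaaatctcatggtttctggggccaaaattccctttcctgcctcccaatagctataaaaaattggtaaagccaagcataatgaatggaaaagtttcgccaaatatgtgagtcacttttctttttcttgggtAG
NT5C3B intron 1: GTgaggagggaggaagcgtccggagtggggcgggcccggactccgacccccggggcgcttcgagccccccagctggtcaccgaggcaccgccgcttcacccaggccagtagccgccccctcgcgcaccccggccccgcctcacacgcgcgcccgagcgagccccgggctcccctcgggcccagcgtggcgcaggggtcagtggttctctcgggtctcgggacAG
PSMB10 intron 5: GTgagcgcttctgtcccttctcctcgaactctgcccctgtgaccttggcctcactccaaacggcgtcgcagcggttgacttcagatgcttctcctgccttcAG
EDC4 intron 22: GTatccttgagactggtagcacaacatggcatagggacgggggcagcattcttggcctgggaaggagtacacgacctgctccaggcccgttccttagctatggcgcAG
DPM2 intron 1: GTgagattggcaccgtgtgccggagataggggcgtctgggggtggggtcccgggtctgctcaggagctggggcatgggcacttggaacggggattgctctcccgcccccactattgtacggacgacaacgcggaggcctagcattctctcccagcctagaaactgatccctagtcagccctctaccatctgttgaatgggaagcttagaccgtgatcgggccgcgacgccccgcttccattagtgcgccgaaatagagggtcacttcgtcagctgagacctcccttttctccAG
CDCA5 intron 1: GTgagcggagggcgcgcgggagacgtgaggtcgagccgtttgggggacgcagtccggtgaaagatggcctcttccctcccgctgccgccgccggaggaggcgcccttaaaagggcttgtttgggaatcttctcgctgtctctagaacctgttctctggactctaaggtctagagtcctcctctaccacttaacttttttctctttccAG

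The 8 sequences varied in base composition. The G and C content was 69.4% in HNRNPL intron 6, 51.7% in GTPBP2 intron 4, 44.0% in FTSJ1 intron 4 and 77.2% in NT5C3B intron 1, and it lay between 58.3% and 60.5% in the 4 introns with the lowest ratio changes. Pyrimidines made up 95% of the bases from the 23rd to the 4th before the end in HNRNPL intron 6 but 45% in GTPBP2 intron 4. Over all 141 retained introns with a sequence, the median G and C content was 58.2%, against 55.1% in 865 other tested introns with one. The first 5 bases, read on the strand of the gene, were GTAAG or GTGAG in 45.4% of the 141 and in 52.0% of the 865. The median share of pyrimidines before the end was 75% in both sets. GT and AG ended 136 of the 141 (96.5%) and 98.8% of the 865.

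The retained introns were longer than the rest and stood more often at the start of a gene or in its untranslated regions. Their median length was 1458 bp (73 to 2997 bp), against 794 bp for the other introns of 11 to 3000 bp. The rule counts reads without regard to length, and its part in this difference was not tested. First introns made up 18.4% of them and 12.2% of the other tested introns, last introns 22.3% and 25.1%, and single introns 3.44% and 1.89%. The tested introns needed a mean of 10 reads of each kind, which the retained introns did not. Of all 98365 other introns of this size, tested or not, 7.14% were first and 10.5% last introns. Last introns were thus more common among the retained introns than in that wider set. An intron within the 5′ untranslated region made up 8.67% and 3.38%, and one within the 3′ region 2.99% and 1.13%. Of the retained introns between coding exons, 36.1% had a length that is a multiple of 3 and would keep the frame, against 33.7% of the others. Chromosome 19 held 65, chromosome 17 held 63 and chromosome 1 held 58. A small RNA gene lay inside 8 of them.

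Per the deposited RPKM values, the H3B-8800 libraries held 58000000 and 62000000 reads and each DMSO library 64000000. Spliced reads of VIM, CAV1, CD44, EGFR, AXL and ZEB1, which mark a mesenchymal breast line, were found in all 4 libraries, those of VIM at 4939 to 6080 CPM (reads scaled to libraries of one size) and those of EGFR at 1.59 to 5.90. ESR1 and PGR were at 0 in all 4, EPCAM and CDH1 reached at most 1.04 CPM, and ERBB2 and KRT8, listed as low markers, lay at 31.3 to 39.3 and 163 to 200 CPM. Counts were scaled to libraries, so a fall of a transcript and a change in RNA per cell or in the number of cells cannot be told apart.

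In the retained introns, intronic reads outnumbered spliced reads more strongly under H3B-8800 than under DMSO. They held 88474 and 97805 intronic reads under H3B-8800, against 69703 and 70310 under DMSO, and 19972 and 22609 spliced reads under H3B-8800, against 31400 and 31459 under DMSO. Intronic reads were thus 81.4% ± 0.25 (SD, n = 2) of both kinds together in H3B-8800 libraries, against 69.0% ± 0.10 (SD, n = 2) in DMSO libraries. The ratio of the means was 1.18, and the groups did not overlap. In the 146 introns without an exon the share was 80.3% and 79.7% under H3B-8800, against 62.1% and 62.6% under DMSO. The DMSO values chose the introns, so these shares are a description. The median retained intron had 60 and 67 intronic reads under H3B-8800, against 52 and 50 under DMSO, and 15 and 17 spliced reads under H3B-8800, against 27 and 26 under DMSO.

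**Figure D1:**
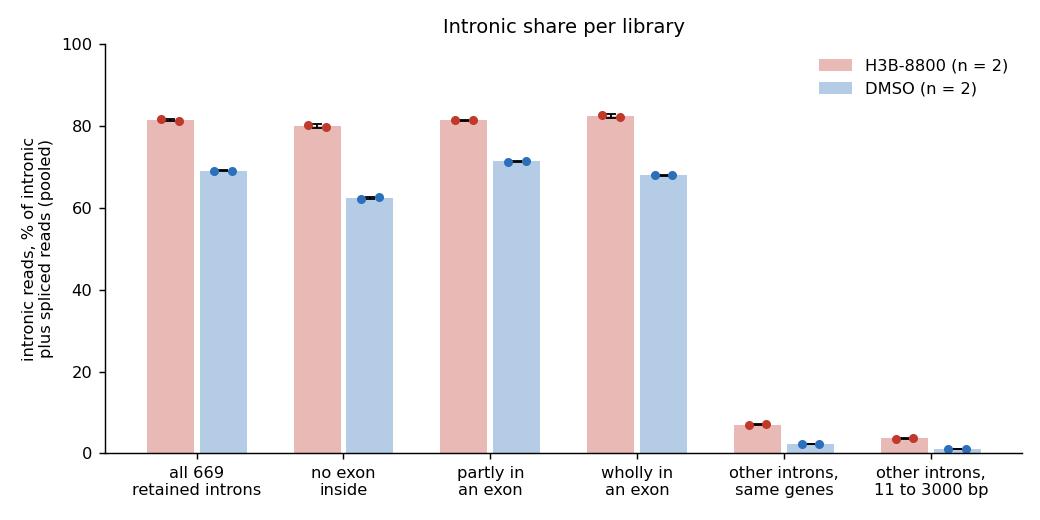
Intronic reads as a percentage of intronic plus spliced reads, pooled over the introns of each set. Bars are means, points single libraries and error bars SD (n = 2 per group); H3B-8800 is red and DMSO blue. The 669 retained introns had 81.4% under H3B-8800 against 69.0% under DMSO, the other introns of the same genes 7.02% against 2.32%.

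The other introns of the same 603 genes, entered the rule only in being left out by it. Over 5307 introns of 11 to 3000 bp, intronic reads were 6.92% and 7.11% of both kinds under H3B-8800, against 2.31% and 2.34% under DMSO, a ratio of 3.02. Per 100 spliced reads they had 7.44 and 7.65 intronic reads under H3B-8800, against 2.36 and 2.39 under DMSO, a ratio of 3.17. The retained introns had 443 and 433 under H3B-8800, against 222 and 223 under DMSO, a ratio of 1.97, but their DMSO values chose them and the sizes of both ratios were not compared by a test. For the share in the other introns the groups did not overlap, and an exact permutation test (two-sided, 2 against 2 libraries) gave p = 0.333, the smallest it can give. The 770 of these introns that stood next to a retained intron had a higher share of intronic reads than the 4537 farther away. Their share was 14.5% ± 0.22 in H3B-8800 libraries and 4.52% ± 0.0017 in DMSO libraries (SD, n = 2 each), and the ratio of these means was 3.21. The farther introns had 5.83% ± 0.094 in H3B-8800 libraries and 2.00% ± 0.023 in DMSO libraries (SD, n = 2 each), with a ratio of 2.92. Among introns without an exon inside, the neighbours had 10.1% and 9.97% under H3B-8800, against 2.91% and 2.98% under DMSO, and those farther away 4.78% and 4.84% under H3B-8800, against 1.47% and 1.40% under DMSO.

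Of these other introns, 414 had a mean of at least 10 intronic reads and entered edgeR's quasi-likelihood test over all introns, on the library totals; a call means a Benjamini-Hochberg adjusted p under 0.05. Intronic reads rose in 201 and fell in 3, with a median change of 1.34 on the log2 scale. On TMM scaling 96 rose and 42 fell and the median was 0.30, beside 0.09 over all introns. The shares of all introns called on TMM scaling are not given here. On the library totals, 48.2% of all 12013 introns tested rose and 5.74% fell. Of the 4917 introns of 11 to 3000 bp that are not retained introns, 59.7% rose and 1.26% fell on that scale. The filter shapes these counts, because 184 of the 414 had a DMSO mean under 10 and were tested only through their H3B-8800 reads, and the rule had taken out introns high under DMSO. Those 184 held 139 of the rises, with a median of 2.44. The other 230 held 62 rises and all 3 falls, with a median of 0.53. Intron 5 of NABP2, a single-strand DNA binding protein of DNA repair, had 185 and 210 intronic reads under H3B-8800, against 6 and 8 under DMSO. Intron 11 of CNOT6, a subunit of the CCR4-NOT deadenylase, had 214 and 193 under H3B-8800, against 9 and 8 under DMSO. Both are among the 184, so their values are given with no test and nothing is read from their difference. The 3 that fell were intron 1 of CLPP, intron 2 of FAM120AOS and intron 6 of RPS2. RPS2 is a ribosomal protein gene whose processed pseudogenes can make its spliced reads uncertain. The introns named here were picked after their values were seen. Without H3B-8800 replicate 1 the median change of the 414 was 1.45, and without replicate 2 it was 1.40. These fits leave 1 H3B-8800 library, so their calls are not given here.

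Among the retained introns themselves, intronic reads moved both ways. All 669 passed the filter on low values, through the DMSO reads that chose them. With H3B-8800, 225 were called higher and 105 lower, beside 48.2% higher and 5.74% lower of all introns tested, with a median log2 change of 0.23, beside 1.13 over all introns and 1.71 over the other introns of this size. The 146 without an exon held 57 higher and 17 lower. The DMSO reads of both kinds entered the rule, so nothing is read from these counts or from those of spliced reads and the ratio that follow. TMM scaling of the intronic reads centres all introns near 0 (a median of 0.09). On that scale 71 retained introns were higher and 335 lower and their median was -0.81. The 48.2% and 5.74% belong to the library totals. The shares of all introns called on TMM scaling are not given here. On the library totals, the median of the retained introns was 0.26 without H3B-8800 replicate 1 and 0.18 without replicate 2. When 867 introns were chosen on DMSO replicate 1 alone, the median change was 0.33 against DMSO replicate 2 and 0.18 against replicate 1. For 859 chosen on replicate 2, it was 0.35 against replicate 1 and 0.23 against replicate 2.

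Spliced reads could be tested in 496 of the 669; the other 173 had a mean under 10. They were called higher in 54 and lower in 144, beside 21.5% and 21.7% of the 66136 introns tested, with a median of -0.27 on TMM scaling and -0.50 on the library totals (all introns 0.01 and -0.23). In the 112 of these without an exon, 10 were higher and 21 lower. On TMM scaling, the median of all 496 was -0.24 without H3B-8800 replicate 1 and -0.38 without replicate 2. The intronic-to-spliced ratio, from 1 model of both kinds of read, was higher in 216 and lower in 24 of the same 496, beside 56.5% and 2.88% of all 9937 introns tested, with a median of 0.93 against 1.62 over all of them. The 112 without an exon held 47 higher and 9 lower. DESeq2 with its own size factors for each kind of read turned the balance to 26 higher and 89 lower (median -0.59). Without the filter on low counts 78 were higher and 2 lower. The shares of all introns called in these settings are not given here. When H3B-8800 replicate 1 or 2 was left out, the edgeR medians of the ratio change were 0.95 and 0.96. The calls of both kinds of read were also paired. The shares of these pairs over all introns are not given here, so nothing is read from the counts. In 39 introns intronic reads were higher and spliced reads lower, and in 127 intronic reads alone were higher. Spliced reads alone were lower in 76 and higher in 24. In 29 both were lower, in 26 both were higher, and in 33 intronic reads alone were lower. In 4 intronic reads were lower and spliced reads higher, and in 138 neither passed.

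**Figure D2:**
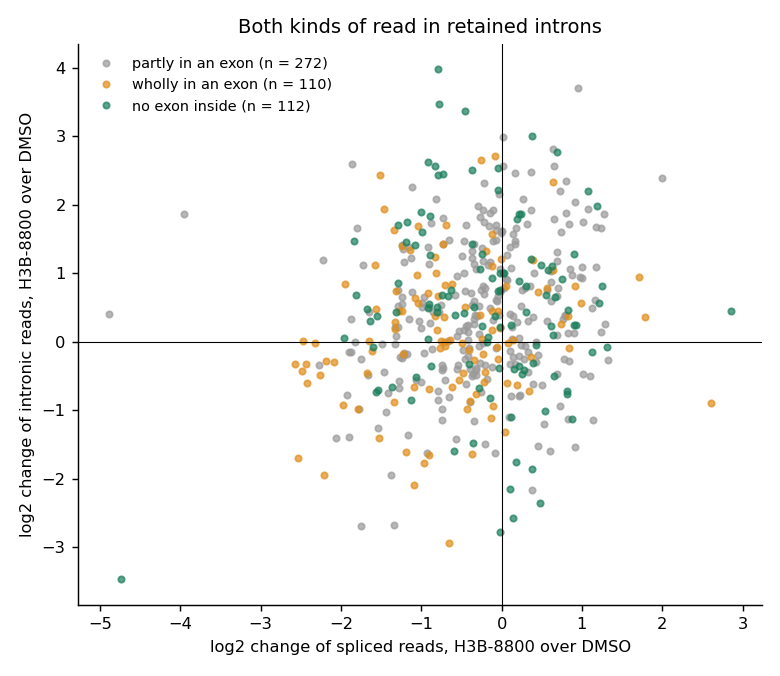
Log2 change of intronic reads (vertical) against that of spliced reads (horizontal), H3B-8800 over DMSO, for retained introns with at least 10 spliced reads on average. Each point is 1 intron, coloured by whether annotated exons lie inside it; the 2 whose only exon is on the opposite strand are not drawn. Introns wholly inside an exon lie mostly left of 0, with a median spliced change of -0.69.

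The medians differed between kinds of intron, a difference that was not tested. Introns without an exon had a median intronic change of 0.47, those partly in an exon 0.21 and those wholly in an exon -0.01. Median spliced changes were -0.06, -0.23 and -0.69 in the same order, and median ratio changes were 1.02, 0.91 and 0.98. By place in the gene, 149 last introns had a median intronic change of 0.74, 374 internal ones 0.17 and 123 first ones -0.05, and median ratio changes were 1.68, 0.92 and 0.56. In the 42 last introns without an exon inside, intronic reads were 84.8% ± 0.30 of both kinds under H3B-8800 and 59.0% ± 0.20 under DMSO (SD, n = 2 each). In the 16 first introns without an exon they were 62.3% and 62.3% under H3B-8800, against 67.3% and 65.6% under DMSO, so the pooled share was lower under H3B-8800. The median ratio change of the 11 of these that could be tested was 0.69, so pooled reads and the median had opposite signs there.

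**Figure D3:**
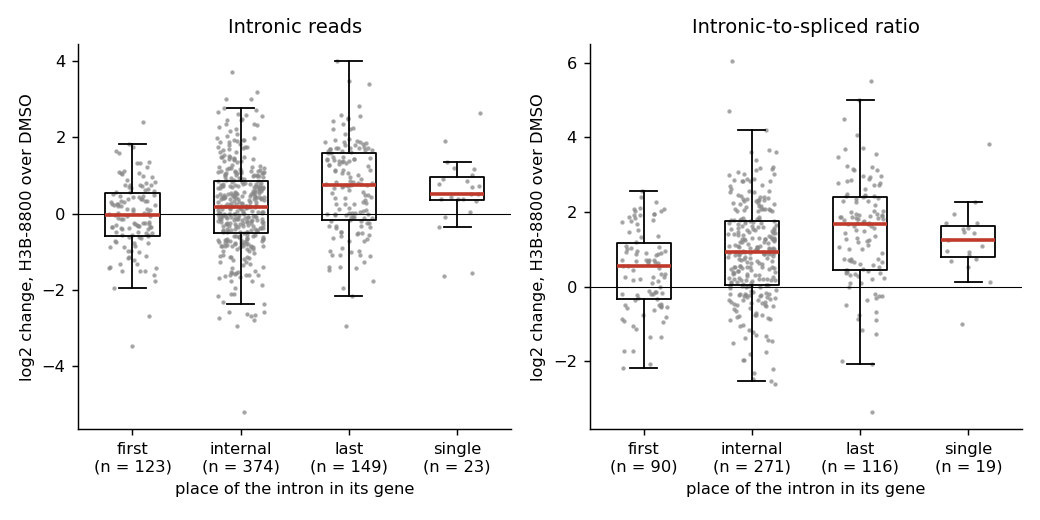
Log2 change of intronic reads (left) and of the intronic-to-spliced ratio (right) in retained introns, H3B-8800 over DMSO, by the place of the intron in its gene. Points are introns, boxes the middle quartiles with the median in red, whiskers up to 1.5 box lengths. Median ratio changes were 0.56 in first, 0.92 in internal and 1.68 in last introns.

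The rule applied to the H3B-8800 libraries gave 1902 introns. They shared 546 with the 669, which is 81.6% of the retained introns and 28.7% of the longer list. The 123 that did not meet it under H3B-8800 had fewer than 20 intronic reads in at least 1 library in 110 cases and lay under the ratio in 38. Close to the limits, 106 retained introns had 20 to 24 reads in the lower DMSO library, and 26 introns stayed out with 19. Intron 6 of ENOSF1, just inside the ratio, had 30 and 16 intronic reads under H3B-8800, against 24 and 20 under DMSO, beside 40 spliced reads in each DMSO library. Intron 1 of APEX2, just outside, had 26 and 33 under H3B-8800 and 52 and 43 under DMSO, beside 97 and 87 spliced reads under DMSO. By reads, intron 2 of ZSCAN29 was just inside with 44 and 34 under H3B-8800 and 26 and 20 under DMSO, and intron 2 of KLK1 just outside with 7 and 8 under H3B-8800 and 19 and 19 under DMSO. The next closest were intron 4 of FBXW5 inside the ratio (27 and 48 under H3B-8800, 44 and 27 under DMSO), intron 12 of MINDY3 outside it (148 and 143 under H3B-8800, 34 and 27 under DMSO), intron 1 of CATSPER3 inside by reads (8 and 12 under H3B-8800, 30 and 20 under DMSO) and intron 2 of KIAA0368 outside (5 and 13 under H3B-8800, 19 and 20 under DMSO).

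The largest ratio changes rested on few spliced reads. Intron 5 of COL4A6, a chain of basement membrane collagen (hg38 chrX:108211741-108214111, 13.5% in an exon), had 362 and 395 intronic reads under H3B-8800, against 106 and 116 under DMSO, but 1 and 1 spliced reads against 18 and 25 (ratio change 6.03, SE 0.64). Intron 6 of COMTD1 had 1 and 0 spliced reads under H3B-8800, against 19 and 26 under DMSO (5.50, SE 0.94), while its intronic reads were 56 and 65 against 51 and 46. Both were picked with their values known. The introns named next are the 8 whose higher ratio had the smallest adjusted p, which favours many reads, and 2 of the introns without an exon with the most DMSO reads. Intron 3 of APEX2, an endonuclease of base excision repair (hg38 chrX:55003869-55006517, the last intron, no exon inside), had 1190 and 1207 intronic reads under H3B-8800, against 88 and 74 under DMSO, and 73 and 70 spliced reads under H3B-8800, against 173 and 137. All H3B-8800 intronic values lay above all DMSO values and all spliced values below; the ratio changed by 4.997 on the log2 scale (SE 0.28). Intron 7 of POLR3F, a subunit of RNA polymerase III (chr20:18481811-18483480, last, no exon), had 254 and 301 intronic reads under H3B-8800, against 20 and 33 under DMSO (ratio change 4.49, SE 0.44). Intron 4 of SUV39H1, from the set chosen by DMSO reads, a histone H3 lysine methyltransferase (chrX:48706628-48707436, last, no exon), had 871 and 957 intronic reads under H3B-8800, against 282 and 261 under DMSO, and 24 and 33 spliced reads against 73 and 60 (ratio change 2.97, SE 0.32). These are 3 last introns without an annotated exon in which both kinds of read separated the groups.

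Of the 8 introns with the smallest adjusted p, those of TOMM70, NDUFS7 and CLPP lie in genes of mitochondrial proteins. Intron 6 of TOMM70, an import receptor of the outer membrane (chr3:100375153-100377704, 11.3% in an exon), had 1103 and 1073 intronic reads under H3B-8800, against 136 and 156 under DMSO, while spliced reads overlapped, with 44 and 49 against 67 and 48 (ratio change 3.20, SE 0.34). Intron 7 of NDUFS7, a subunit of respiratory complex I (chr19:1393331-1395390), had 306 and 346 intronic reads under H3B-8800, against 119 and 104 under DMSO (3.22, SE 0.34). Intron 2 of CLPP, the protease of the mitochondrial matrix (chr19:6361941-6362445), had 657 and 668 under H3B-8800, against 306 and 296 under DMSO (2.30, SE 0.24). The introns of NDUFS7 and CLPP lie wholly in an exon of a retained_intron transcript and overlap an exon on the opposite strand, so the gene of origin of their reads is less certain.

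The 8 also held introns of ABHD17A, HNRNPL and GNAI2. Intron 2 of ABHD17A, an enzyme that removes palmitate from membrane proteins (chr19:1877688-1879920, wholly in an exon), had 796 and 946 intronic reads under H3B-8800, against 165 and 177 under DMSO, and 41 and 35 spliced reads against 141 and 133 (ratio change 4.19, SE 0.31). The printed intron 6 of HNRNPL, an RNA-binding regulator of splicing, had 1204 and 1437 intronic reads under H3B-8800, against 212 and 235 under DMSO, and 162 and 219 spliced reads against 280 and 290 (3.15, SE 0.25). Spliced reads of HNRNPL outside this intron changed by 0.34. Intron 6 of GNAI2, an inhibitory G protein subunit (chr3:50257715-50258367, in the 3′ untranslated region), had 1152 and 1267 intronic reads under H3B-8800, against 348 and 389 under DMSO (2.77, SE 0.25). Intron 7 of PTPN1, a protein tyrosine phosphatase, held the most DMSO intronic reads of any retained intron without an exon (chr20:50581461-50582691), with 1302 and 1617 under H3B-8800, against 777 and 770 under DMSO, and 413 and 432 spliced reads against 550 and 492. On TMM scaling its spliced reads changed by 0.03 (SE 0.10), within the spread. Intron 4 of WIZ, also without an exon, had 357 and 399 intronic reads under H3B-8800, against 170 and 164 under DMSO. In intron 11 of SYNJ2, an inositol phosphatase, intron 5 of C10orf90, intron 1 of CYP4V2, a fatty acid hydroxylase, and intron 1 of PRKRIP1, which complete the 8 without an exon with CAMLG, intronic changes were 0.07, -0.47, 0.01 and -0.50.

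**Figure D4:**
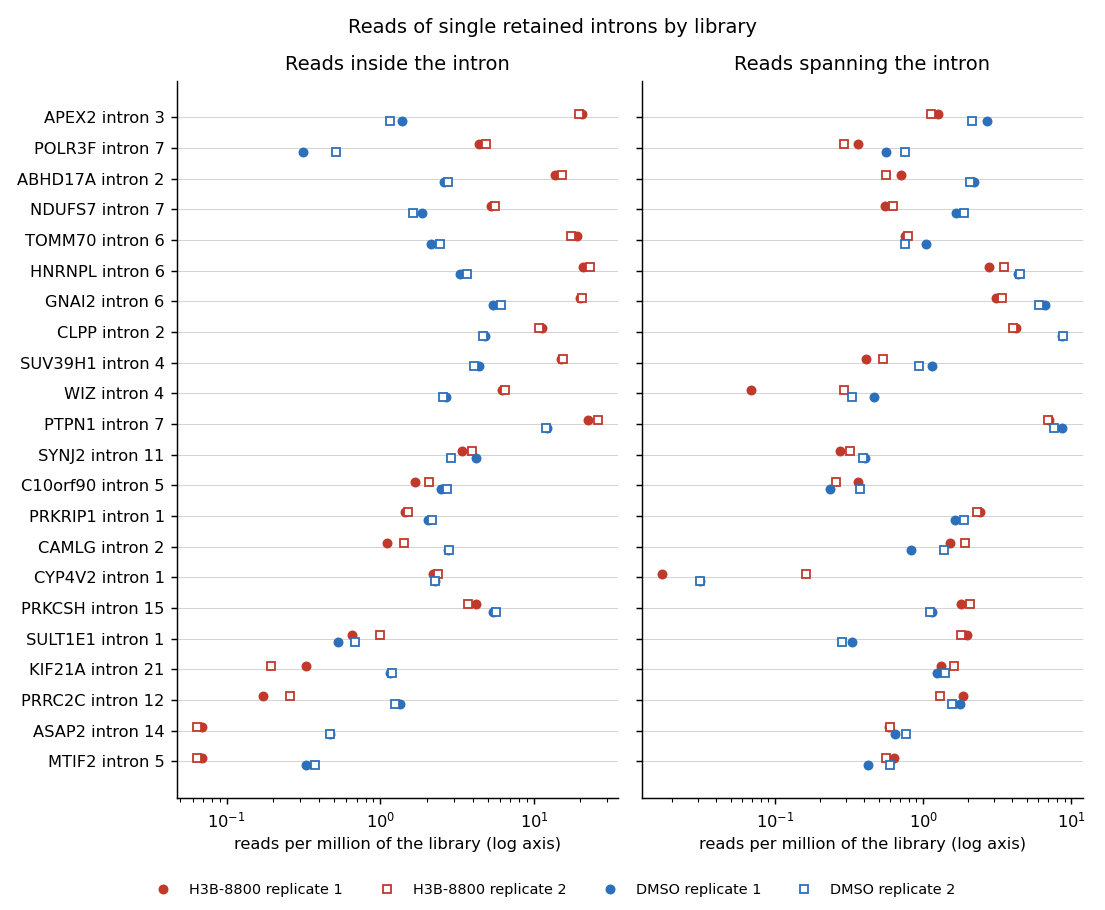
Reads inside (left) and reads spanning (right) each of 22 retained introns, in CPM of the library total on log axes. Red marks are H3B-8800 and blue marks DMSO, filled circles replicate 1 and open squares replicate 2. From top to bottom come the 8 introns with the smallest adjusted p for a higher ratio, those without an exon with the most DMSO intronic reads, and 6 of those with the smallest adjusted p for a lower ratio that are not already among these.

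In other introns the ratio was lower, and those given here are from the ones with the smallest adjusted p. Intron 12 of PRRC2C (chr1:171532962-171535427, no exon) had 10 and 16 intronic reads under H3B-8800, against 86 and 80 under DMSO, while spliced reads overlapped, with 107 and 80 against 113 and 100 (ratio change -2.47, SE 0.47). Intron 21 of KIF21A, a kinesin motor (chr12:39320014-39322667), had 19 and 12 under H3B-8800, against 74 and 76 under DMSO (-2.32, SE 0.47). Intron 2 of CAMLG, a membrane protein of the pathway that inserts tail-anchored proteins (chr5:134741524-134743986, no exon), had 64 and 88 under H3B-8800, against 176 and 178 under DMSO (-1.80, SE 0.37). Intronic reads were also lower in 2 introns with fewer reads: intron 14 of ASAP2, a GTPase-activating protein for Arf proteins, had 4 and 4 under H3B-8800, against 30 and 30 under DMSO, and intron 5 of MTIF2, a mitochondrial initiation factor, 4 and 4 against 21 and 24. In intron 1 of SULT1E1, an oestrogen sulfotransferase (chr4:69857654-69860048), intronic reads overlapped, with 38 and 62 under H3B-8800 and 34 and 44 under DMSO, but spliced reads were 115 and 112 against 21 and 18 (-2.19, SE 0.49). Intron 15 of PRKCSH, the beta subunit of glucosidase II (chr19:11449429-11450645), had 243 and 231 intronic reads under H3B-8800, against 347 and 359 under DMSO, and 104 and 129 spliced reads against 73 and 71 (-1.26, SE 0.30).

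A few introns held a large part of the reads. The most abundant, intron 19 of KHSRP, an RNA-binding protein that acts on AU-rich messages (chr19:6414121-6415140, 67.1% in an exon), took 5.36% and 5.90% of the intronic reads of the set under H3B-8800 and 7.94% and 8.43% under DMSO. It had 4744 and 5768 intronic reads under H3B-8800, against 5534 and 5926 under DMSO, and 18 and 24 spliced reads against 64 and 84. Its intronic change of -0.03 (SE 0.07) was thus within the spread, while spliced reads separated the groups. The 50 most abundant took 36.7% and 37.1% under H3B-8800, against 44.0% and 44.5% under DMSO. Intron 8 of NOP56, a core protein of box C/D small nucleolar ribonucleoproteins, holds a small RNA gene (chr20:2656035-2656400); it had 220 and 243 intronic reads under H3B-8800, against 806 and 885 under DMSO, and 600 and 654 spliced reads against 1582 and 1480. The printed intron 4 of FTSJ1, a tRNA methyltransferase, had 547 and 589 intronic reads under H3B-8800, against 613 and 614 under DMSO, but 28 and 44 spliced reads against 233 and 220. KHSRP, NOP56 and FTSJ1 were picked with their values known.

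The other printed introns spanned the same range. Intron 4 of GTPBP2, a GTPase of ribosome rescue, had 129 and 174 intronic reads under H3B-8800, against 91 and 88 under DMSO, and 18 and 37 spliced reads against 129 and 137. Intron 1 of NT5C3B, a nucleotidase, had 147 and 188 intronic reads under H3B-8800, against 255 and 287 under DMSO, and 0 and 8 spliced reads against 27 and 28, so both kinds were lower and the spliced reads more so. In intron 5 of PSMB10, a subunit of the immunoproteasome, 12 and 9 intronic reads under H3B-8800 stood against 38 and 33 under DMSO, and 16 and 26 spliced reads against 43 and 56. Intron 1 of DPM2, a subunit of dolichol-phosphate-mannose synthase, had 19 and 31 intronic reads under H3B-8800, against 82 and 81 under DMSO, and 25 and 28 spliced reads against 75 and 77. Both kinds of read were below the DMSO values in PSMB10 and DPM2, with ratio changes (-0.50, SE 0.62, and -0.20, SE 0.46) smaller than their SE. Intron 22 of EDC4, a scaffold of mRNA decapping, had 26 and 48 intronic reads under H3B-8800, against 61 and 59 under DMSO, while spliced reads overlapped, with 61 and 80 against 95 and 74. In intron 1 of CDCA5 (sororin, a regulator of sister chromatid cohesion) both kinds were higher, with 70 and 85 intronic reads under H3B-8800, against 61 and 51 under DMSO, and 111 and 164 spliced reads against 89 and 84.

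Over all 99034 introns of this size, 0.676% were retained introns by the rule. Among 29 genes for which detained introns are well described, 276 introns included 7 of them, in 6 genes (2.54%). Intron 2 of PNISR, a protein rich in serine and arginine (chr6:99410965-99412550), had 632 and 715 intronic reads under H3B-8800, against 218 and 217 under DMSO, and 181 and 201 spliced reads against 115 and 153 (ratio change 1.11, SE 0.28). Intron 2 of ARGLU1, a regulator of splicing (chr13:106557132-106559431, wholly in an exon), had 461 and 411 under H3B-8800, against 374 and 334 under DMSO (0.90, SE 0.25). Intron 17 of RBM5 and intron 5 of CCNL1 had intronic changes of 0.23 (SE 0.24) and 0.04 (SE 0.26). Of 21 SR protein and splicing kinase genes, SRRM2 (intron 12) and CLK3 (intron 11) held 1 each of 132 introns (1.52%); CLK3 intron 11 had 75 and 78 intronic reads under H3B-8800, against 49 and 58 under DMSO, and 88 and 137 spliced reads against 68 and 58. In the whole lists, spliced reads outside retained introns rose in 12 and fell in 10 of 29 genes of the first, and rose in 10 and fell in 7 of 19 tested genes of the second, beside 32.7% of all 9445 genes each way.

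In the other lists the share was 0.617% of core spliceosome introns, 0.943% for DNA replication and repair and 0.667% for ribosomal protein genes. Of 26 core spliceosome genes, DHX15, a helicase that takes the spliceosome apart (intron 10, 381 and 352 intronic reads under H3B-8800, against 181 and 166 under DMSO), and SF3B3, a subunit of SF3b (intron 1, 32 and 29 against 21 and 39), held 1 each. Of 80 ribosomal protein genes, RPS2 had 525 and 587 intronic reads in intron 1 under H3B-8800, against 545 and 637 under DMSO, and RPL26L1 had 677 and 665 in intron 1 under H3B-8800, against 213 and 262 under DMSO. Among 25 genes of DNA replication and repair, the retained introns were intron 20 of POLD1, the catalytic subunit of DNA polymerase delta, intron 39 of POLE, that of polymerase epsilon, and intron 7 of LIG1, a DNA ligase. Intron 20 of POLD1 had 25 and 35 intronic reads under H3B-8800, against 34 and 52 under DMSO, and 4 and 16 spliced reads against 65 and 77. The list of 19 genes of aminoacyl-tRNA synthetases and ATF4 targets with listed introns held none. Spliced reads outside retained introns fell in 22 of 24 tested replication and repair genes, and rose in 17 and fell in 4 of 26 spliceosome genes, beside 32.7% of all genes each way.

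The genes with 3 retained introns differed among themselves. In ITPR3, a calcium channel of the endoplasmic reticulum, introns 7, 28 and 54 held no exon; intron 54 had 44 and 56 intronic reads under H3B-8800, against 43 and 39 under DMSO, and 14 and 12 spliced reads against 54 and 42. In ROS1, a receptor tyrosine kinase, intron 27 had 124 and 187 intronic reads under H3B-8800, against 77 and 66 under DMSO, whereas intron 12 overlapped, with 51 and 42 against 58 and 28. In FBXO17, an F-box protein, intron 4 had 158 and 172 under H3B-8800, against 358 and 335 under DMSO. In MPP3, a membrane scaffold protein, intron 9 had 509 and 519 under H3B-8800, against 161 and 166 under DMSO, while intron 14 had 39 and 70 against 35 and 38 and intron 16 had 36 and 36 against 45 and 37, differences with SEs of 0.34 and 0.32 around log2 changes of 0.66 and -0.09. The 3 retained introns of OCEL1 had intronic changes from -0.68 to 0.01.

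More host genes fell than rose in spliced reads under H3B-8800, also outside the retained introns. The counts of those other introns did not enter the rule. A read across several introns is counted in each, so some reads can be in both counts. The rule chose the genes by DMSO reads, which can favour genes with more RNA under DMSO. Its part in these falls was not tested. Of 549 host genes with at least 1 CPM on average, spliced reads of the other introns fell in 249 (45.4%) and rose in 120 (21.9%), with a median change of -0.23 on the log2 scale (edgeR's quasi-likelihood test, TMM scaling, Benjamini-Hochberg adjusted p under 0.05 over all genes). Over all 9445 genes tested, 32.7% fell and 32.7% rose, with a median of 0.01. Hosts of introns wholly in an exon fell in 61 of 120 and rose in 15; hosts of introns without an exon fell in 46 and rose in 35 of 128. On the library totals the host median was -0.41, beside -0.16 for all genes. Host genes had more introns, a median of 10 against 7 in genes without a retained intron, and genes with many introns fell more often. Within genes of 5 to 9 introns, 46.7% of 169 hosts and 31.5% of 2845 other genes fell; within 10 to 19 introns, 52.4% of 189 and 37.8% of 2385; with 20 or more, 51.9% of 104 and 45.8% of 1008; and with 1 to 4, 19.5% of 87 and 21.8% of 2658. The difference between hosts and other genes was not tested.

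**Figure D5:**
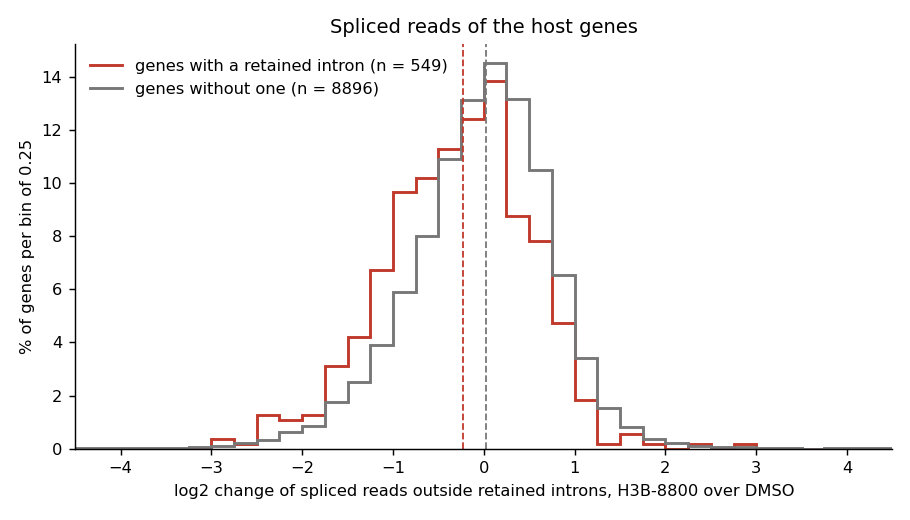
Distribution of the log2 change of spliced reads outside retained introns, H3B-8800 over DMSO, for 549 host genes (red) and 8896 genes without a retained intron (grey), as a percentage of genes per bin of 0.25. Dashed lines are the medians, -0.23 and 0.03.

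Of the host genes at 10 CPM or more in either group, 3 with a large fall and 3 with a large rise follow. POLD1 had 13.7 and 15.5 CPM of spliced reads under H3B-8800, against 81.7 and 87.9 under DMSO (log2 change -2.53, SE 0.10; edgeR adjusted p = 1.05e-09). EML2, a microtubule-associated protein, had 6.65 and 7.02 CPM under H3B-8800, against 33.5 and 38.6 under DMSO (-2.40, SE 0.13; edgeR adjusted p = 1.84e-08). SFXN3, a mitochondrial amino acid carrier, fell to 8.55 ± 2.2 CPM under H3B-8800, against 42.4 ± 0.24 under DMSO (SD, n = 2 each; -2.30, SE 0.14; edgeR adjusted p = 3.28e-08). SULT1E1 had 66.3 and 65.3 CPM under H3B-8800, against 13.5 and 11.5 under DMSO (2.39, SE 0.10; edgeR adjusted p = 2.56e-09). STX3, a syntaxin of membrane fusion, had 124 and 111 CPM under H3B-8800, against 34.2 and 34.4 under DMSO (1.77, SE 0.08; edgeR adjusted p = 4.3e-09), and TLE1, a transcriptional corepressor, 29.1 and 28.1 against 12.7 and 12.1 (1.21, SE 0.12; edgeR adjusted p = 1.81e-06). In all 6 genes the groups did not overlap; they were picked with their values known.

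The median change of spliced reads at retained introns lay close to that of their host genes. Over 470 retained introns tested for both, the median spliced change was -0.26 at the intron and -0.22 in the rest of the gene, with a median difference of -0.06; 27 were lower and 11 higher than their gene by 1 or more on the log2 scale. The retained introns were, at the median, spanned by fewer reads than other introns of their genes in every library. This was taken, in each library apart, where the other introns of the gene had a median of at least 10 spliced reads. The retained intron had a median of 59.6% and 63.6% of that number under H3B-8800, against 70.3% and 74.9% under DMSO. These medians rest on 452 and 466 introns under H3B-8800 and 536 and 534 under DMSO, so they do not follow the same introns. Low spliced reads in DMSO were part of the rule, so these percentages are a description. In 12 retained introns no library had a spliced read, among them intron 4 of NAGS, an enzyme of the urea cycle, with 142 and 176 intronic reads under H3B-8800, against 158 and 140 under DMSO.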

How the data were processed

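Cytoplasmic polyA RNA of SUM159 cells was measured in 4 strand-specific libraries, 2 with H3B-8800 and 2 with DMSO, per the labels. Per the submitters' processing notes, the tool was HISAT2 2.0.4, with builds hg38 and mm10; the counting method and its use of strand are not given in the sources used here. The authors deposited, without a header, 2 read counts and an RPKM value for each of 142224 introns of 15902 genes, 1 transcript per gene. The deposited RPKM value equals the first count per length and library total, which gave the totals. The second count minus the first was read as spliced reads, an inference from the values; reads across several introns are counted once for every one. Both counts were given for 142206 introns. Coordinates are 1-based, on hg38; 99.9% of listed introns match GENCODE 29.

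Counts were tested with edgeR 4.0.16 (R 4.3.3): intronic reads on library totals, spliced reads per intron and per gene with TMM, the ratio as the interaction of kind of read and treatment with a term per library. Filters were a mean of 10 reads per intron, of each kind for the ratio, and of 1 CPM per gene. SEs come from the F statistic. DESeq2 1.42.0 was an alternative. Simulated counts with known changes were tested first, with a common spread for each kind of read. At 4-fold, 78.8% of changed introns were recovered for intronic reads, 93.9% for spliced reads, 65.2% for the ratio and 100% of genes. At 2-fold these shares were 11.9%, 56.7%, 7.46% and 97.0%, so in the simulation most 2-fold intronic changes were missed. With 2 libraries per group, p-values rest on little spread. Same-numbered libraries did not deviate together, so no block was used.

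The members and lists were chosen with earlier results of these data known. Named by rule are the 8 introns without an exon with most DMSO reads, the 8 smallest adjusted p for a higher and for a lower ratio among introns whose groups do not overlap, up to 4 members per gene list, introns at the thresholds and genes with most members. Some introns that these rules name are given in part or not reported here. Sequences come from GENCODE 29 transcripts; introns outside annotated exons are not printed. Tables used Python 3.11.15, pandas 2.3.3 and SciPy 1.17.1.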

Additional observations from a re-analysis of the deposited data

How the results depend on the processing

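The direction of the intronic counts depended on the scale. The shares of all introns called under the alternative settings are not given here. TMM scaling of intronic reads gave 71 retained introns higher and 335 lower, and 96 and 42 of the other introns of the host genes; DESeq2 with its own size factors gave 54 and 257, and 58 and 19. DESeq2 on the library totals, chosen after seeing the data, gave 55 lower retained introns and 1 lower other intron. For spliced reads of retained introns DESeq2 gave 33 higher and 68 lower; for the ratio it gave 26 and 89 with its own size factors, which centre each kind of read apart, and 12 lower on the library totals. Without a filter on low counts the ratio was higher in 78 and lower in 2. Other counts stayed within 1.5 times of those reported. With the replicate number as a block, intronic reads were higher in 211 and lower in 93, spliced reads in 56 and 147, the ratio in 200 and 18, host genes in 122 and 251, and other introns in 176 and 1; the correlations of same-numbered libraries were 0.07, -0.003 and 0.02, so the numbers gave no sign of a pairing.

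Leaving out 1 library at a time gave 0 to 217 higher and 0 to 95 lower for intronic reads, 0 to 45 and 0 to 113 for spliced reads, 136 to 182 and 9 to 21 for the ratio, and 0 to 209 and 0 to 7 for other introns; host genes stayed at 99 to 108 higher and 211 to 222 lower, and the ratio of shares at 1.177 to 1.182. The 0 came with edgeR without either H3B-8800 library; the cause was not tested. DESeq2 on the library totals then gave 112 and 109 higher and 21 and 33 lower retained introns, and 61 and 61 higher other introns; without either DMSO library it gave 125 and 134 higher and 22 and 17 lower, and 112 and 108 higher other introns. The rule gave 1075 introns at a minimum of 10 reads and 373 at 40, and 146 held no exon. The intronic share with H3B-8800 over DMSO was 1.28 in introns without an exon, also without small RNA genes, and 1.19 as a median over introns. The 867 introns chosen on DMSO replicate 1 had a median intronic change of 0.33 against replicate 2 and 0.18 against replicate 1. The 859 chosen on replicate 2 had 0.35 against replicate 1 and 0.23 against replicate 2. The 669 chosen on both had 0.23 against both.

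Of 34 named introns, 10 turned the sign of the ratio change under DESeq2 with its own size factors: SRRM2 (-1.32), ARGLU1 (-0.64), PNISR (-0.43), RBM5 (-0.63), CCNL1 (-1.02), SF3B3 (-0.81), POLE (-0.61), RPS2 (-0.46), PTPN1 (-0.32) and SYNJ2 (-1.03). With 1 library left out, SRRM2 ranged from -0.0264 (without DMSO replicate 2) to 0.459, and CLK3 from -0.576 to 0.00502 (without H3B-8800 replicate 2).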
